A study of Danio rerio with 2 samples.

Results

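Fatty acid oxidation genes were compared between whole zebrafish embryos exposed to cyproconazole, a triazole fungicide, and untreated embryos. The genes were taken by name from a list of 35 that covers activation, the carnitine shuttle, mitochondrial and peroxisomal oxidation, and regulators. Of these, 32 had a row under that symbol among the 23809 genes of the deposited table. The other 3, hadhb, etfa and eci2, were matched by gene ID through a reference name table, and their values are given apart and are in no count below unless stated.

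One library came from embryos kept in 20 µM cyproconazole from 4 hours post fertilization, and 1 from untreated control embryos. Both were collected at 3 days post fertilization, each as a pool of 40 whole embryos of the genotype SAGFF(LF)53A mitfab692/+, which carries 1 mutant allele of the pigment cell regulator mitfa. With 1 library per group no difference has a replicate check and none was tested, so a ratio speaks of this pair of libraries alone.

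Fatty acids are burned stepwise. Acyl-CoA synthetases first join a fatty acid to coenzyme A, and long chains then cross the mitochondrial membranes as carnitine esters. In the matrix, dehydrogenases, hydratases and thiolases shorten the chain by an acetyl unit per round, while peroxisomes shorten very long and branched chains. At this stage zebrafish embryos still live on yolk lipid, and nuclear receptors of the PPAR alpha type switch on many of these genes in mammals when fatty acids are plentiful.

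Levels are FPKM, fragments per kilobase of transcript scaled to library depth, as the authors deposited them. Differences are log2(FPKM + 1) in the cyproconazole library minus the control, on which differences of low genes look smaller than they are. Whole reads, recovered from other columns of the table, gave a read ratio of cyproconazole to control whose 95% interval, exact and binomial, reflects the counting of reads and nothing else. The reads summed to 20726353 in the cyproconazole library and 18067935 in the control. A gene was measured if it had at least 50 reads over both libraries and was not listed at 0 FPKM despite them, which held for 18621 genes and for all 32 members. The members had 138 to 9069 reads each over both libraries, with a median of 1877, against a median of 644 over all measured genes.

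Most genes of fatty acid oxidation had nearly the same level in both libraries. On the FPKM + 1 scale 28 of 32 members (87.5%) lay within 1.2-fold, against 78.8% of all measured genes, and the members' median difference was 0.04 (0.02 by reads), against 0.02 over all measured genes. The shares past or within a fold are not matched for depth. The members had more reads (median 1877 against 644), and genes with more reads scatter less by counting. In the cyproconazole library 2 members (6.25%) were higher by 1.5-fold or more, the acyl-CoA synthetase gene acsl5 and the receptor gene pparaa, where 1.58% of measured genes were that much higher. That share rests on these 2 genes, and without acsl5 it was 1 of 31 (3.23%). By the same measure 0 members were lower, where 1.71% of measured genes were. Past 2-fold there were 0 members in either direction, where 0.269% of measured genes were higher and 0.446% lower. Past 1.2-fold there were 4 higher members (12.5%), with slc25a20 and acaa1 added, close to the 11.8% of all measured genes, and 0 lower members, where 9.44% of measured genes were lower. In whole embryos, a change in the number of cells of a type and a change in RNA per cell cannot be told apart.

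**Figure D1:**
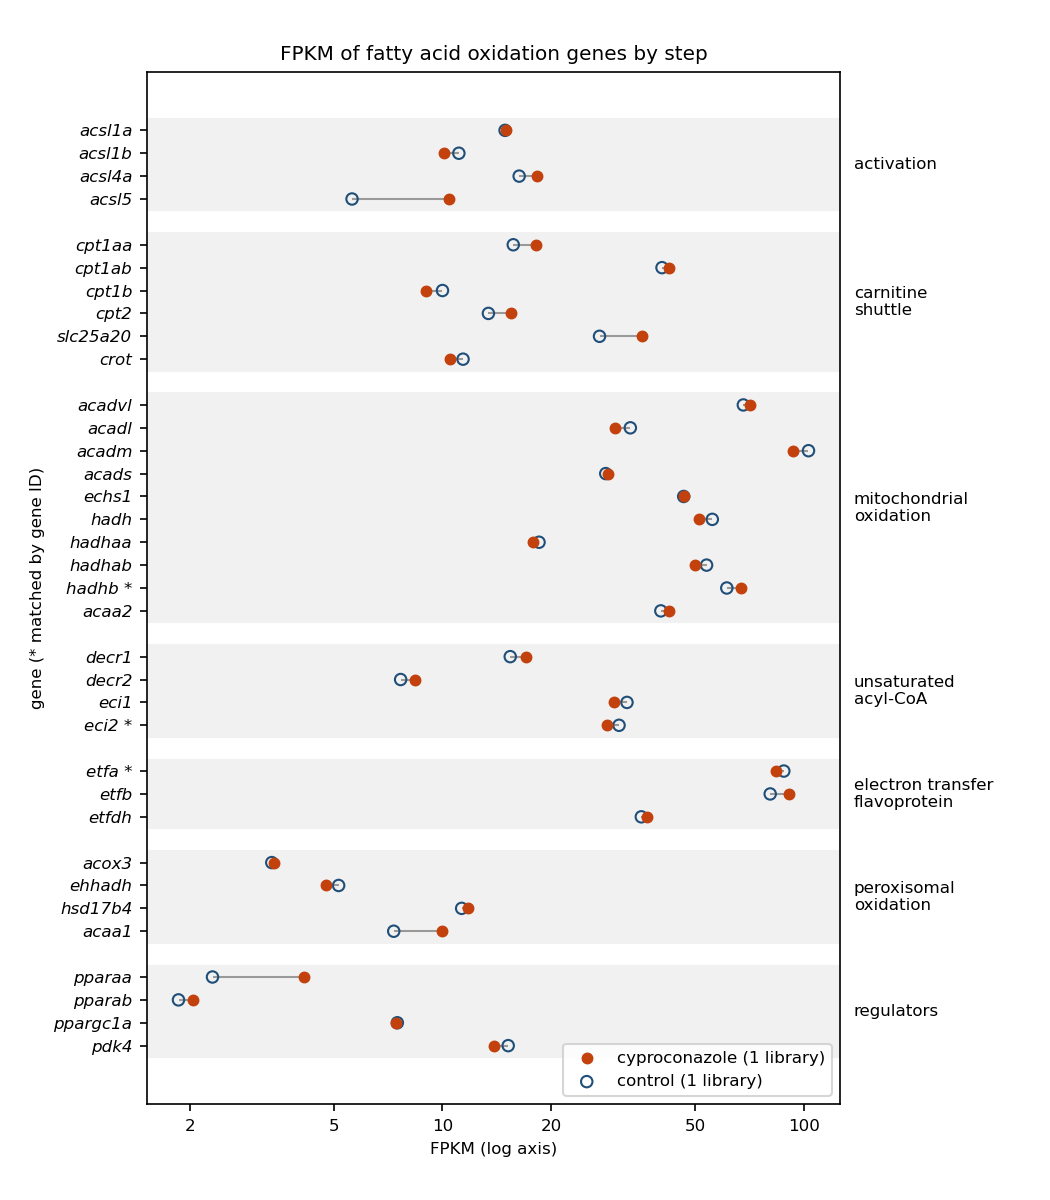
FPKM (log axis) of the 32 members matched by symbol and the 3 matched by gene ID (*), grouped by step, in the cyproconazole library (filled) and the control library (open), with a line joining the 2 values of a gene. The points of most genes nearly coincide, and the longest lines belong to acsl5 (10.4 FPKM in the cyproconazole library, 5.62 in the control) and pparaa (4.14 FPKM in the cyproconazole library, 2.31 in the control).

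By reads the same 2 members were higher by 1.5-fold or more, where 2.86% of measured genes were, and 0 were lower by as much, where 3.13% were. Past 1.2-fold by reads there were again 4 higher members and 0 lower ones, beside 13.5% higher and 12.9% lower among measured genes. The counting interval lay above 1 for 8 members (25.0%), where it did for 15.8% of measured genes, and below 1 for 5 members (15.6%), where it did for 14.5%. Among measured genes with at least 200 reads these shares were 17.7% above and 16.1% below, and 31 of the 32 members had that many reads. The summed reads of the 32 members gave a ratio of 1.01 (0.999 to 1.03), and their summed FPKM was 856 in the cyproconazole library and 839 in the control.

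**Figure D2:**
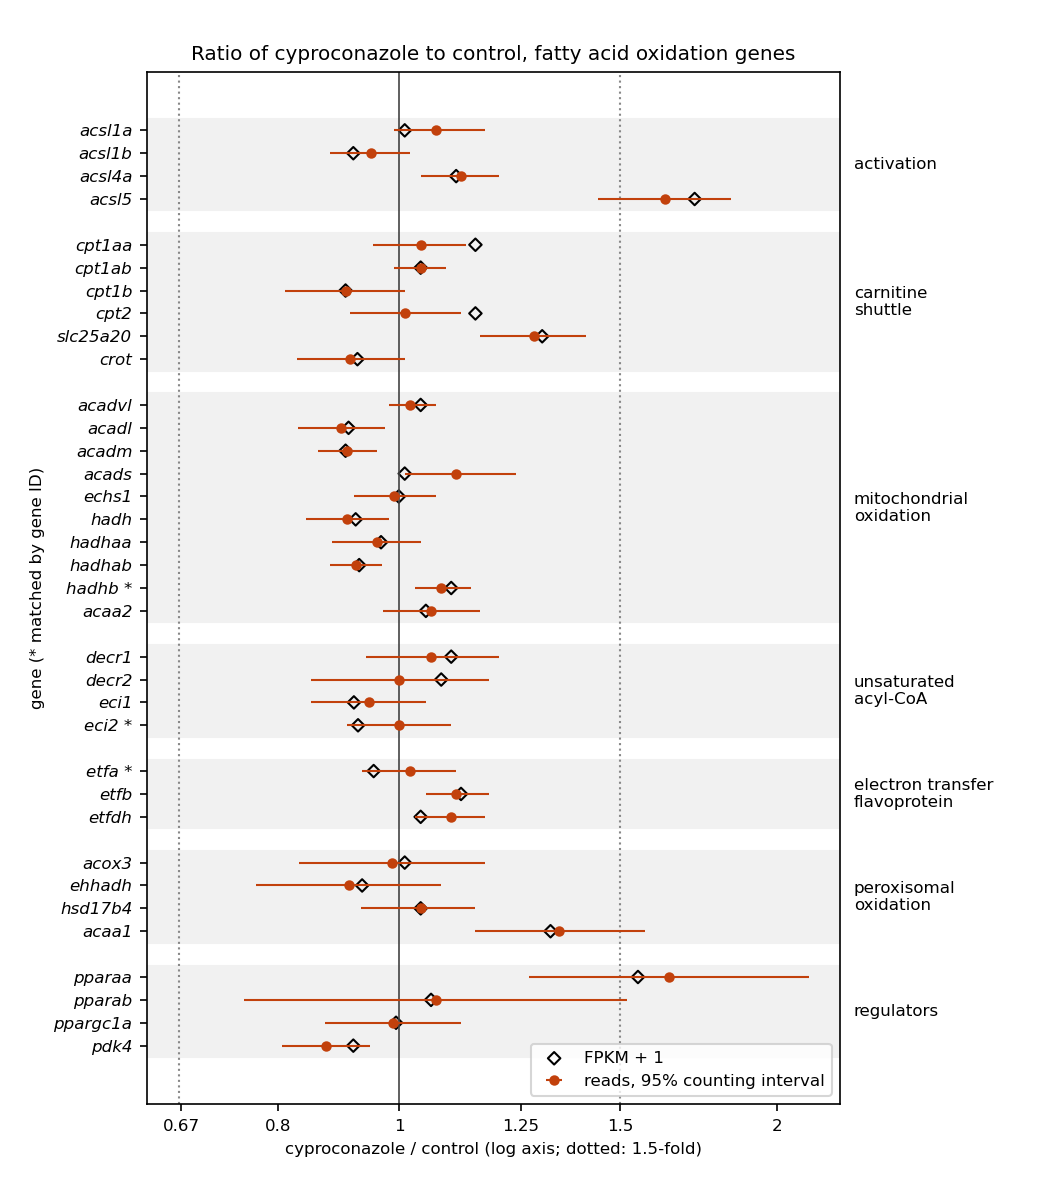
Ratio of cyproconazole to control (log axis) for each member by step, from reads with the 95% counting interval (filled circles and bars) and from FPKM + 1 (open diamonds), with * for genes matched by gene ID and dotted lines at 1.5-fold. Only acsl5 and pparaa have both points past 1.5-fold, and for cpt1aa and cpt2 the FPKM point lies outside the counting interval.

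Activation was the step with the largest single difference on the FPKM scale. The gene acsl5 (ENSDARG00000075931), a long-chain acyl-CoA synthetase that in mammals is abundant in gut and liver, had 10.4 FPKM in the cyproconazole library, against 5.62 FPKM in the control. That is a log2(FPKM + 1) difference of 0.78, the 101st highest of 18621 measured genes (312th by read ratio), with 745 reads in the cyproconazole library and 398 in the control. Its read ratio was 1.63 (1.44 to 1.84). The other 3 synthetase genes were much closer to 1, and the interval of acsl5 lay above each of theirs.

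The gene acsl4a, whose mammalian counterpart prefers polyunsaturated fatty acids, had 18.3 FPKM in the cyproconazole library and 16.3 FPKM in the control, and the read ratio was 1.12 (1.04 to 1.2). The gene acsl1a, a counterpart of the main synthetase of mammalian muscle and fat, had 15.0 and 14.9 FPKM in the cyproconazole and control libraries, and its read ratio was 1.07 (0.991 to 1.17). Its paralog acsl1b had 10.1 FPKM in the cyproconazole library and 11.1 FPKM in the control (0.949, 0.881 to 1.02). Together the 4 synthetases had 53.8 FPKM in the cyproconazole library and 48.0 FPKM in the control, and acsl5 made up 19.3% of the sum in the cyproconazole library and 11.7% in the control.

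In the carnitine shuttle the carrier slc25a20 stood out from the transferases. It encodes the translocase that exchanges acylcarnitine for free carnitine across the inner mitochondrial membrane. The gene slc25a20 (ENSDARG00000040401) had 35.7 FPKM in the cyproconazole library and 27.2 FPKM in the control, with 1006 reads in the cyproconazole library and 684 in the control. Its read ratio was 1.28 (1.16 to 1.41). Its interval lay above those of the other 5 shuttle genes, each of which held 1.

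Carnitine palmitoyltransferase 1, on the outer membrane, is the controlled entry to the pathway and is encoded here by 3 genes. The most abundant, cpt1ab, had 42.3 FPKM in the cyproconazole library and 40.5 FPKM in the control, and the read ratio was 1.04 (0.99 to 1.09). The muscle-type gene cpt1b had 9.0 FPKM in the cyproconazole library and 10.0 FPKM in the control, a read ratio of 0.906 (0.811 to 1.01). The make-up of the 3 was much the same in both libraries, with cpt1ab at 60.9% and 61.1% of their summed FPKM in the cyproconazole and control libraries and cpt1b at 13.0% and 15.1%.

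For cpt1aa and cpt2 the FPKM and the reads gave different sizes. The gene cpt1aa had 18.1 FPKM in the cyproconazole library and 15.7 FPKM in the control, an FPKM ratio of 1.16, beside a read ratio of 1.04 (0.952 to 1.13). The gene cpt2, which returns the acyl group to coenzyme A on the inner membrane, had 15.5 FPKM in the cyproconazole library and 13.4 FPKM in the control, an FPKM ratio of 1.16, beside a read ratio of 1.01 (0.914 to 1.12). For both genes the FPKM ratio lay above the read interval, which held 1. The reads therefore do not show a difference of the size seen by FPKM. Why FPKM and reads disagree was not tested. The peroxisomal carnitine octanoyltransferase gene crot had 10.5 FPKM in the cyproconazole library and 11.4 FPKM in the control (0.913, 0.829 to 1.01).

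The enzymes of the mitochondrial spiral held to a narrow band. The 9 genes matched by symbol had log2(FPKM + 1) differences of -0.14 to 0.07 with a median of -0.05. On the FPKM + 1 scale 0 passed 1.2-fold, where 11.8% of measured genes were higher and 9.44% lower. By reads 0 did as well, where 13.5% were higher and 12.9% lower. These 9 genes had 1511 to 9069 reads each over both libraries, against a median of 644 over measured genes. Genes with that many reads scatter less by counting. Their summed FPKM was 431 in the cyproconazole library and 447 in the control, and their summed reads gave a ratio of 0.966 (0.946 to 0.987). These sums leave out hadhb, matched by gene ID, which has many reads and a read ratio of 1.08 (1.03 to 1.14). They therefore speak of the 9 genes and not of the whole step. Some of the most abundant members belong here, with acadm, the medium-chain dehydrogenase, at 93.2 FPKM in the cyproconazole library and 103 FPKM in the control.

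The 4 acyl-CoA dehydrogenases, which open each round by setting a double bond and are sorted by chain length, did not all lie on the same side of 1. The very-long-chain gene acadvl had 70.8 FPKM in the cyproconazole library and 68.0 FPKM in the control (read ratio 1.02, 0.981 to 1.07). The long-chain gene acadl had 30.1 FPKM in the cyproconazole library and 33.1 FPKM in the control (0.899, 0.830 to 0.974). For acadm the read ratio was 0.909 (0.862 to 0.960). The short-chain gene acads had 28.7 and 28.3 FPKM in the cyproconazole and control libraries. Its reads were further apart than its FPKM, at a ratio of 1.11 (1.01 to 1.24).

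The hydratase and 3-hydroxyacyl-CoA dehydrogenase steps follow. The short-chain hydratase gene echs1 had 46.5 FPKM in each library (0.991, 0.920 to 1.07). The short-chain hydroxyacyl dehydrogenase gene hadh had 51.4 FPKM in the cyproconazole library and 55.8 FPKM in the control (0.909, 0.842 to 0.982). For long chains these reactions belong to the mitochondrial trifunctional protein. Of the paired genes for its alpha subunit, hadhab had 49.9 FPKM in the cyproconazole library and 53.8 FPKM in the control (0.923, 0.880 to 0.968), and hadhaa had 17.8 FPKM in the cyproconazole library and 18.5 FPKM in the control (0.959, 0.883 to 1.04).

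The beta subunit of that protein is encoded by hadhb, matched by gene ID (ENSDARG00000102055). It lay on the other side of 1, with 67.1 FPKM in the cyproconazole library and 61.2 FPKM in the control, and the read ratio was 1.08 (1.03 to 1.14), an interval that does not overlap that of hadhab. The thiolase gene acaa2, which ends the round, had 42.3 FPKM in the cyproconazole library and 40.2 FPKM in the control (1.06, 0.971 to 1.16). All intervals below 1 in this step, those of acadl, acadm, hadh and hadhab, had their read ratio between 0.899 and 0.923. Of the 9 genes matched by symbol, 4 intervals lay below 1 (44.4%) and 1 above (11.1%). Among measured genes with at least 200 reads 16.1% lay below and 17.7% above, shares not matched for depth.

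Unsaturated chains need auxiliary enzymes, whose read intervals all held 1. The mitochondrial dienoyl-CoA reductase gene decr1 had 17.0 FPKM in the cyproconazole library and 15.4 FPKM in the control (1.06, 0.940 to 1.2), and its peroxisomal counterpart decr2 had 8.38 FPKM in the cyproconazole library and 7.66 FPKM in the control (1.0, 0.850 to 1.18). The isomerase gene eci1 had 29.8 FPKM in the cyproconazole library and 32.4 FPKM in the control (0.946, 0.850 to 1.05). The isomerase gene eci2, matched by gene ID (ENSDARG00000102412), had 28.5 FPKM in the cyproconazole library and 30.8 FPKM in the control (1.0, 0.909 to 1.10).

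The electron transfer flavoprotein takes the electrons of the acyl-CoA dehydrogenases and passes them through its ubiquinone oxidoreductase to the respiratory chain. Its beta subunit gene etfb had 90.8 FPKM in the cyproconazole library and 80.7 FPKM in the control, and the read ratio was 1.11 (1.05 to 1.18). The oxidoreductase gene etfdh had 36.9 FPKM in the cyproconazole library and 35.5 FPKM in the control, and the read ratio was 1.10 (1.03 to 1.17). The alpha subunit gene etfa, matched by gene ID (ENSDARG00000101631), had 83.9 FPKM in the cyproconazole library and 88.0 FPKM in the control, and its read ratio of 1.02 (0.934 to 1.11) was on the other side of 1 from its FPKM.

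Among the 4 peroxisomal enzymes a thiolase gene had the largest difference. The thiolase gene acaa1 (ENSDARG00000004687), which ends a round of peroxisomal oxidation, had 9.97 FPKM in the cyproconazole library and 7.33 FPKM in the control, with 425 reads in the cyproconazole library and 275 in the control. Its read ratio was 1.34 (1.15 to 1.57), an interval that overlaps that of acox3. Its log2(FPKM + 1) difference of 0.4 was the 869th highest of 18621 measured genes (1075th by read ratio). Of the 4 genes it alone was at least 1.2-fold higher on the FPKM + 1 scale, where 11.8% of measured genes were. The bifunctional enzyme gene hsd17b4 had 11.8 FPKM in the cyproconazole library and 11.3 FPKM in the control (1.04, 0.932 to 1.15). The other bifunctional enzyme gene, ehhadh, had 4.75 FPKM in the cyproconazole library and 5.16 FPKM in the control (0.911, 0.769 to 1.08). The oxidase gene acox3 had 3.42 FPKM in the cyproconazole library and 3.37 FPKM in the control (0.987, 0.832 to 1.17). It was the 1 gene of the 32 matched by symbol whose FPKM and reads lay on different sides of no difference.

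The regulators lay between 2.04 and 13.9 FPKM in the cyproconazole library and between 1.86 and 15.2 FPKM in the control. The gene pparaa (ENSDARG00000031777), 1 of a pair of zebrafish genes for PPAR alpha, the fatty acid receptor that drives oxidation genes in mammals, had 4.14 FPKM in the cyproconazole library and 2.31 FPKM in the control. With 179 reads in the cyproconazole library and 95 in the control its read ratio was 1.64 (1.27 to 2.12), and its log2(FPKM + 1) difference of 0.63 was the 233rd highest of 18621 measured genes (302nd by read ratio). The other gene, pparab, had 2.04 FPKM in the cyproconazole library and 1.86 FPKM in the control. Its 76 reads in the cyproconazole library and 62 in the control gave 1.07 (0.752 to 1.52), an interval that overlaps that of pparaa. Whether the ratios of the pair differ was not tested, and overlapping intervals do not settle it.

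The coactivator gene ppargc1a, which in mammals raises mitochondrial number and oxidation, had 7.45 FPKM in the cyproconazole library and 7.50 FPKM in the control (0.988, 0.872 to 1.12). The gene pdk4 encodes a kinase that shuts off pyruvate dehydrogenase and so spares glucose when fat is burned. It had 13.9 FPKM in the cyproconazole library and 15.2 FPKM in the control, and the read ratio was 0.874 (0.806 to 0.947), the lowest read ratio of the 32 members.

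**Figure D3:**
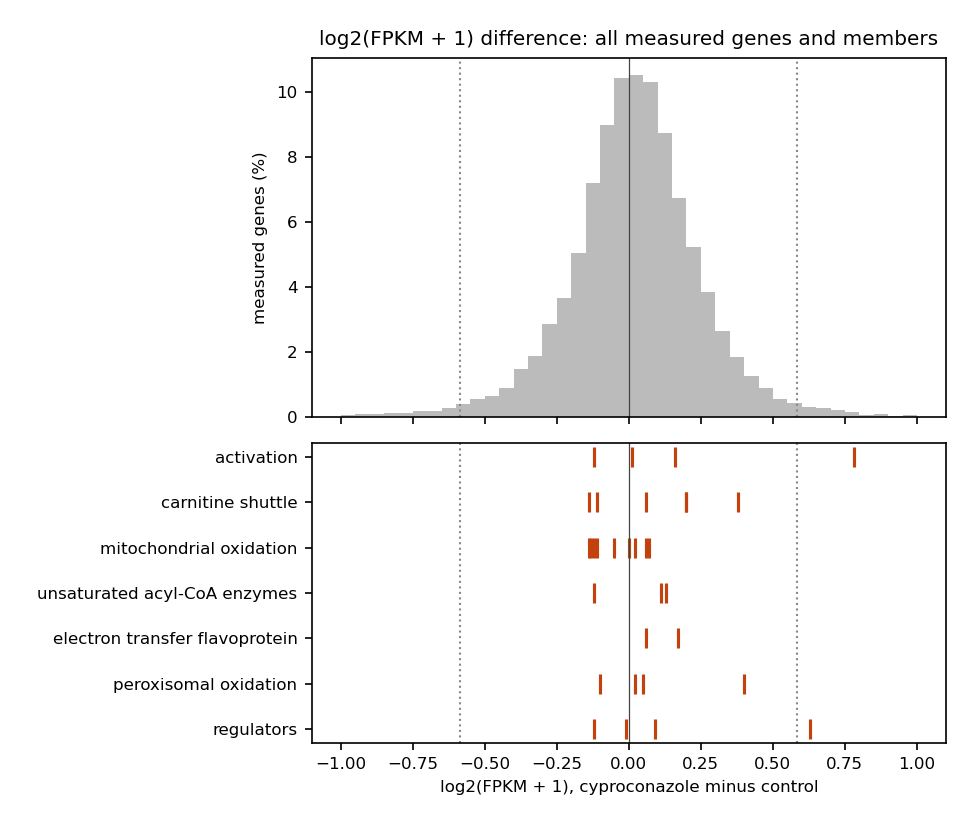
Top, the percentage of the 18621 measured genes by their log2(FPKM + 1) difference, cyproconazole minus control, in bins over -1 to 1 (133 genes lie outside), and bottom, 1 tick for each of the 32 members by step, with dotted lines at 1.5-fold. Mitochondrial oxidation spans -0.14 to 0.07, and acsl5 (0.78) and pparaa (0.63) are the only ticks past a dotted line.

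Across members the levels spanned 45.7-fold in the cyproconazole library and 55.4-fold in the control, and their order was almost the same (Spearman's rho of 0.987 over 32 genes, a description, since both libraries share gene lengths and mapping). In both libraries acadm was highest, and pparab lowest. By the log2 FPKM ratio without an added value, 6 members differed from their log2 read ratio by more than 0.1. They were cpt2 by 0.19, acsl5 by 0.18, cpt1aa by 0.15, acads by -0.14, and decr2 and pparaa by 0.13 each. Both acsl5 and pparaa thus had a larger ratio by FPKM than by reads. What was done with reads that fit more than 1 gene is not given in the sources used here. Values of the close paralogs hadhaa and hadhab, cpt1aa and cpt1ab, acsl1a and acsl1b, and pparaa and pparab are uncertain for that reason.

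Other genes of fatty acid metabolism, 90 in 8 lists, were set beside the members. Of these, 80 were matched by symbol and 78 were measured. Past 1.5-fold, 0 of them were higher, beside 1.58% of all measured genes, and 2 were lower (2.56%), beside 1.71%, shares near those of all genes. Their median log2(FPKM + 1) difference was 0.02. The 2 lower genes were ucp2, an uncoupling protein of the inner mitochondrial membrane, and lpin1, a phosphatidate phosphatase that in mammals also coactivates PPAR alpha. Both belong to the list of PPAR pathway and receptor genes, where they are 2 of 23 measured genes (8.7%), beside 1.71% of all measured genes. That share rests on these 2 genes. Past 1.2-fold on the FPKM + 1 scale the list had 2 higher and 2 lower genes (8.7% each), beside 11.8% and 9.44% of measured genes. Its counting intervals lay above 1 for 6 genes (26.1%) and below 1 for 5 (21.7%), beside 15.8% and 14.5%. The gene ucp2 had 108 FPKM in the cyproconazole library and 173 FPKM in the control, with 2299 reads in the cyproconazole library and 3263 in the control. Its read ratio was 0.612 (0.580 to 0.646). The gene lpin1 had 12.2 FPKM in the cyproconazole library and 22.7 FPKM in the control (0.649, 0.596 to 0.706). On the FPKM + 1 scale the ratio of lpin1 was 0.556, below that interval, so FPKM and reads gave different sizes. By reads ucp2 had the lower ratio of the pair.

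By list, the median log2(FPKM + 1) difference was -0.01 over 13 other peroxisomal genes, -0.03 over 6 other acyl-CoA dehydrogenases, 0.02 over 10 other synthetases and transport proteins, 0.04 over 5 genes of carnitine synthesis and uptake, 0.03 over 7 ketone body and acetyl-CoA enzymes, -0.01 over 5 propionyl-CoA enzymes and 0.04 over 23 genes of the PPAR list. In fatty acid synthesis the median was -0.17 over 9 measured genes, of which 0 passed 1.5-fold. Past 1.2-fold 2 of the 9 were higher, beside 11.8% of all measured genes, and 4 were lower, beside 9.44%.

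**Figure D4:**
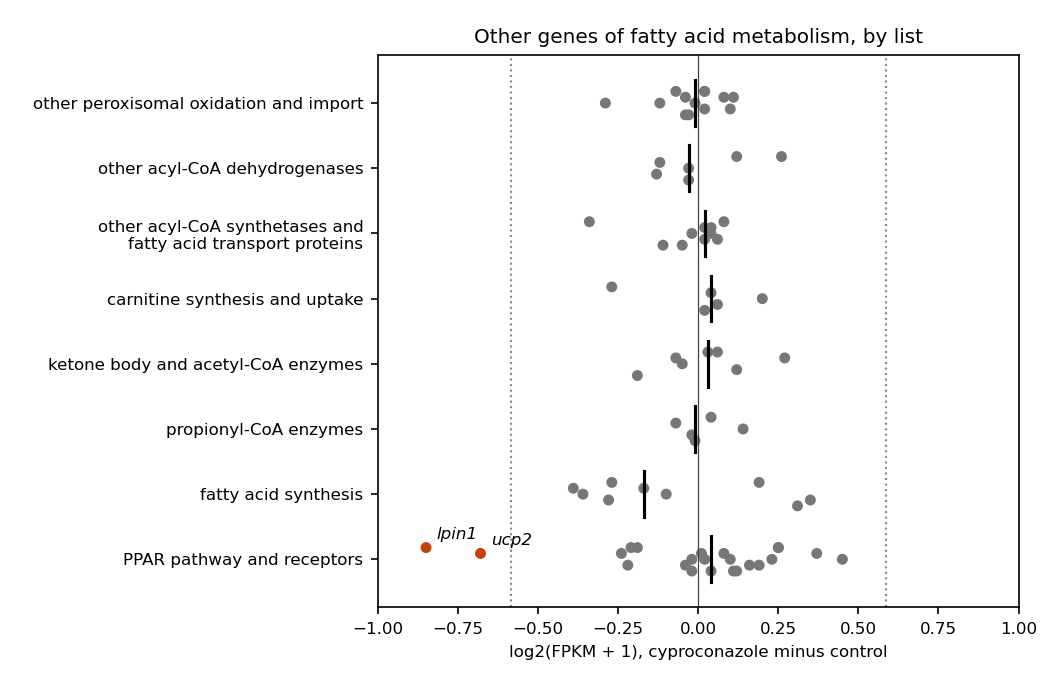
Difference in log2(FPKM + 1), cyproconazole minus control, of each measured gene in 8 lists of fatty acid metabolism outside the members (points), with the list median (black bar) and dotted lines at 1.5-fold. Only ucp2 (-0.68) and lpin1 (-0.85) are past a dotted line, and the fatty acid synthesis median lies at -0.17.

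Marker genes of the tissues set beside the members did not share 1 direction. The intestinal markers, of which 4 of 5 were measured and 0 were listed at 0 FPKM, summed to 48.5 FPKM in the cyproconazole library and 62.9 FPKM in the control, with 3 of 4 at least 1.2-fold lower, beside 9.44% of all measured genes. Of these vil1 was past 1.5-fold on the FPKM + 1 scale, at 8.36 FPKM in the cyproconazole library and 13.7 FPKM in the control, and its read ratio was 0.723 (0.641 to 0.815). The 8 liver markers had counting intervals above 1 for 3 and below 1 for 4, beside 15.8% and 14.5% of measured genes. They summed to 5784 FPKM in the cyproconazole library and 6042 FPKM in the control, and 0 were listed at 0. Most of these sums came from apoa2, named with its value known, at 4613 FPKM in the cyproconazole library and 4777 FPKM in the control. The differences of the 8 ran from -0.52 to 0.41, with a median of -0.04. Fast muscle markers had a median difference of 0.05 over 8 genes, slow muscle markers -0.01 over 5, heart markers -0.08 over 6, kidney tubule markers 0.03 over 5 and yolk syncytial layer markers -0.13 over 5. The yolk syncytial layer intervals lay above 1 for 1 marker and below 1 for 3, beside 15.8% and 14.5% of measured genes. Fast muscle intervals lay above 1 for 5 markers (62.5%) and below 1 for 3 (37.5%), beside 15.8% and 14.5% of measured genes. The median difference of the fast muscle markers was nonetheless small. None of these interval shares is matched for depth. Many of the markers have far more reads than most genes, which makes their intervals narrow. The heart marker nppa had 10.8 FPKM in the cyproconazole library and 6.91 FPKM in the control, and its read ratio was 1.56 (1.32 to 1.84). It does not stand for its list, as 4 of the 6 heart markers had a log2(FPKM + 1) difference below 0. Their counting intervals lay above 1 for 2 and below 1 for 2, beside 15.8% and 14.5% of measured genes. The part of these tissue markers in the values of the members was not tested.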

How the data were processed

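Poly-A RNA of 2 pools of whole embryos was sequenced, 1 library per group, per the labels' protocols. For the build GRCz10, the submitters' processing notes list Cufflinks 2.1.1, HTSeq 0.6.1, Picard 1.29, SAMtools and TopHat2 2.0.4, with no role or order. The authors deposited an FPKM value per library, per the file headers. The deposited table also holds a mean normalized count (a signal divided by size factors), a shrunken log2 ratio with its standard error, a test score and an unadjusted p-value, per the file headers. As each group is a single library, none of these comparison values is reported as a result.

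All mean counts are whole multiples of a common step (largest deviation 0.0057 of it). Whole reads were recovered by taking, among the pairs of reads that fit a mean count, the pair whose shrunken ratio gives the deposited standard error within 1e-05 and beats the next pair 10 times. This gave reads for 23788 of 23809 genes. The members had 3 to 143 candidate pairs, so their reads rest on that model. On data simulated under that same model, the true pair came back for 100% of 23662 genes. This cannot show that the deposited columns follow the model. A trimmed mean of M values (trimming 30% by log ratio and 5% by mean level) set the scale of the read ratios. SciPy 1.17.1, pandas 2.3.3 and NumPy 2.4.6 were used under Python 3.11.15. Intervals are Clopper-Pearson at 95%. The reads carry no molecular identifiers, so they do not stand for separate molecules.

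The plan allowed for FPKM or counts, and FPKM were used. All members are named, as are measured genes of the 8 fatty acid metabolism lists past 1.5-fold on either scale and the marker genes vil1 and nppa, and any further gene is marked as named with its value known. Members and lists were chosen with earlier results of these data known. Gene positions were not used here.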

Additional observations from a re-analysis of the deposited data

How the results depend on the processing

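No paired analysis was possible because there is a single library on each side, which also means that none could be left out. The inclusion of the 3 genes matched by gene ID was chosen after the data were seen. Against 2 members at least 1.5-fold higher, 4 passed 1.2-fold and 0 passed 2-fold, which follows from the threshold itself, and 0 were lower at any of the 3 thresholds. The count stayed at 2 higher and 0 lower with 0.1 added to FPKM, with no minimum of reads, with at least 200 reads (which leaves out pparab), with the 3 genes included, centred on the median gene, and by recovered reads under 5 scalings. Some of these settings could hardly change it. The 5 scalings have log2 offsets of 0.198 to 0.205 and are nearly 1 setting, and the centring moved each difference by 0.021. No member has fewer than 138 reads, so dropping the minimum of 50 could not change the members. The members' median of 0.04 was 0.01 to 0.03 under the centring, the read scalings, the 200-read minimum and the inclusion of the 3 genes. By reads the carnitine shuttle median was 0.03 to 0.04, against 0.13, that of the unsaturated acyl-CoA enzymes 0 to 0.01, against 0.11, and that of activation 0.13, against 0.08. With the 3 genes included, the unsaturated acyl-CoA enzymes had 0 and the electron transfer flavoprotein 0.06, against 0.11 each. The regulators' median was -0.01 with at least 200 reads, against 0.04. Each of these shifts, and those of the other step medians, was smaller than the half-width of the counting interval of a typical single gene of the group, which is not an error of the median. Among single members, cpt1aa and cpt2 moved by more than their counting error under each of the 5 read scalings, to at most 0.06 and 0.02 on the log2 scale. The other genes of fatty acid metabolism stayed at 0 higher and 2 lower by recovered reads and with 0.1 added. Of the members, pparab has the fewest reads, and its interval reaches 1.42-fold from the ratio.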

Other observations

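Measured genes around the entry of fuel into mitochondria lay under 1.5-fold, and those of this paragraph were named after their values were seen. Malonyl-CoA, which blocks carnitine palmitoyltransferase 1, is made by the acetyl-CoA carboxylases and removed by malonyl-CoA decarboxylase. The decarboxylase gene mlycd had 4.70 FPKM in the cyproconazole library and 3.18 FPKM in the control, with 209 reads in the cyproconazole library and 125 in the control and a read ratio of 1.45 (1.16 to 1.83). The carboxylase gene acaca had 6.34 FPKM in the cyproconazole library and 8.66 FPKM in the control (0.818, 0.741 to 0.903). The mitochondrial-type carboxylase gene acacb had 12.6 FPKM in the cyproconazole library and 13.6 FPKM in the control (0.927, 0.876 to 0.980). Of the other pyruvate dehydrogenase kinase genes, the read ratio was 0.838 (0.729 to 0.963) for pdk1, 0.809 (0.711 to 0.919) for pdk2b and 0.826 (0.696 to 0.980) for pdk3a, while pdk2a had 1.02 (0.960 to 1.09). The gene pdk3b, with 7 reads in the cyproconazole library and 20 in the control, was under the minimum of 50 reads (read ratio 0.304, 0.109 to 0.749). A counting interval off 1 is common in these libraries, at 15.8% of measured genes above and 14.5% below.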
